A study of Arabidopsis thaliana with 9 samples.

Results

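Transcripts of 10 SQUAMOSA PROMOTER BINDING PROTEIN-LIKE (SPL) genes were followed in Arabidopsis seedlings with reduced Polycomb Repressive Complex 2 (PRC2). The genes were SPL2 (AT5G43270), SPL3 (AT2G33810), SPL4 (AT1G53160), SPL5 (AT3G15270), SPL6 (AT1G69170), SPL9 (AT2G42200), SPL10 (AT1G27370), SPL11 (AT1G27360), SPL13A (AT5G50570) and SPL15 (AT3G57920). They were listed by locus as SPL genes known for phase change. The rule uses no measured value, but earlier results of these data were known when the list was made. Each matched 1 sequence ID, so that the 10 genes were 10 of the 30361 IDs on the array.

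SPL proteins are plant transcription factors that share a DNA-binding domain with affinity for GTAC cores. In young plants the microRNA miR156 is abundant and holds SPL transcripts and their translation down. As miR156 declines with age, SPL proteins accumulate, promote adult leaf traits, and activate both MADS-box flowering genes and miR172, which in turn represses floral repressors of the AP2 family. PRC2 deposits H3K27me3, a histone mark of repressed genes, and is known to act on several genes of this pathway, MIR156 loci among them.

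Seedlings of 2 genotypes with reduced PRC2 were compared with wildtype, with 3 arrays of each. The clf swn seedlings were double mutants for CURLY LEAF and SWINGER, histone methyltransferases of the complex. They were sterile and had to be picked from segregating progeny. Their alleles are given as clf-7 swn-28 in the sample titles and as swn-7 clf-28 in the growth protocol. The siFIE seedlings were T1 plants that carried an RNAi construct against FIE, a core subunit of the complex. They were selected on kanamycin (50 mg/L), which the sources give for siFIE alone and not for clf swn or Col. Only siFIE plants of intermediate phenotype were pooled. What promoter drives the construct is not given in the sources used here. Wildtype seedlings were Col. The growth protocol places siFIE in the C24 ecotype, whereas the methods name Col. In comparisons with siFIE, differences of ecotype and of kanamycin selection thus cannot be told apart from that of the construct. All seedlings were grown for 12 days on plates in long days, and each array held RNA of 1 pool of 10 to 12 plants.

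The values are RMA signals per gene on a linear scale, background corrected and normalized before deposit, and 3 arrays a genotype limit the precision. Across genes, which are not independent replicates, log2 signals of 2 arrays correlated at 0.991 to 0.994 within genotypes and at 0.915 to 0.978 between them. FIE averaged 282 ± 38.3 in siFIE and 1843 ± 115 in Col (SD, n = 3 arrays in each genotype throughout). CLF averaged 4014 ± 378 in clf swn and 11640.0 ± 783 in Col, and SWN 229.8 ± 144 in clf swn and 11448 ± 236 in Col. These 3 genes were all down-regulated in the genotype that targets them, though the FIE change stayed under 2-fold when it was computed from probe signals, at -0.85 to -0.79 on the log2 scale. The study's own RT-qPCR also found FIE mRNA reduced in siFIE plants relative to wildtype Col. Tissue markers also moved. The summed signal of 4 leaf genes was 65386 to 67214 in clf swn, 127147 to 139668 in siFIE and 166618 to 175639 in Col, and that of 2 root hair genes was 2836 to 4556 in clf swn, 6324 to 8465 in siFIE and 9654 to 11174 in Col. The sum of 4 seed genes was 205074 to 213022 in clf swn, 1909 to 5690.1 in siFIE and 296 to 351 in Col. Among them the oil body gene OLEO1 was listed at the same value, 63918.9, on all 3 clf swn arrays, so the clf swn sum may be capped. The sum of 4 floral organ genes was 34348 to 36505 in clf swn, 20266 to 28072 in siFIE and 492 to 565 in Col. Of these 14 markers, 12 passed the thresholds used for calls in clf swn, where 6562 of all 30361 IDs did. In siFIE 8 did, where 2338 of all IDs did. These 8 were the seed and floral organ genes, and no leaf or root hair gene was called in siFIE. None of the 14 was listed at 0 on any array. The leaf enzyme CA1 was lowest in clf swn, at 55.6 to 499, against 29827 to 33608 in Col. The RNA came from whole seedlings, so fewer cells of a type and less RNA per cell cannot be told apart, and the part of the tissue markers in the SPL results was not tested.

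SPL4 was up-regulated in both mutants, SPL3 was down-regulated in clf swn, and no other SPL gene passed both thresholds against Col. A call required an adjusted p under 0.05 in limma, with Benjamini-Hochberg adjustment over all IDs, together with a change of more than 2-fold. In clf swn 1 of the 10 SPL genes was up-regulated, where 8.78% of all IDs were, and 1 was down-regulated, where 12.8% of all IDs were. In siFIE 1 was up-regulated, against 4.51% of all IDs. None was down-regulated in siFIE, against 3.19% of all IDs, although 1 SPL gene (SPL15) was lower there at an unadjusted limma p under 0.05. For a list of 10 genes 1 call is the smallest share above 0, so these counts do not set the SPL genes apart from other IDs. With probe signals that were not background corrected, SPL4 was again called higher in both mutants (5.17% of all IDs in clf swn, 2.25% in siFIE) and 0 SPL genes were called lower in either (7.79% of all IDs in clf swn, 1.46% in siFIE). Both mutants were set against the same 3 Col arrays.

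By adjusted p alone, 8 of the 10 SPL genes passed in clf swn, where 46.8% of all IDs did, and 6 of these 8 were under 2-fold. With each array left out in turn 7 or 8 passed. The estimate was below 0 for 8 of 10 SPL genes in clf swn, with a median log2 change of -0.48, while 46.3% of all IDs were below 0 with a median of 0.05. For the 7 other SPL genes on the array, 4 estimates were below 0 in clf swn and the median was -0.20. In siFIE 2 of 10, SPL4 and SPL15, passed by adjusted p alone, a share like the 20.3% of all IDs. That count was 1 to 3 with each array left out and 1 with the replicate number as a block. The difference between the counts of the mutants was not tested. There 5 of 10 estimates were below 0 and the median was 0.05, against 52.7% and -0.02 for all IDs. The mutant arrays lay entirely outside the range of the Col arrays for 8 SPL genes in clf swn and for 5 in siFIE, where 56.3% of all IDs did so in clf swn and 37.6% in siFIE.

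The same medians were also taken on single arrays, as a description and not as further support. Relative to the Col mean of each gene, the median of the 10 genes was between -0.49 and -0.47 on the log2 scale on the 3 clf swn arrays, between -0.12 and 0.02 on the siFIE arrays, and between -0.09 and 0.05 on the Col arrays. On each clf swn array 2 or 3 of the 10 genes were above their Col mean. On siFIE arrays 4 or 5 were, and on Col arrays 4 to 6. The Col arrays make up their own mean, so their medians lie near 0 by construction.

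**Figure D1:**
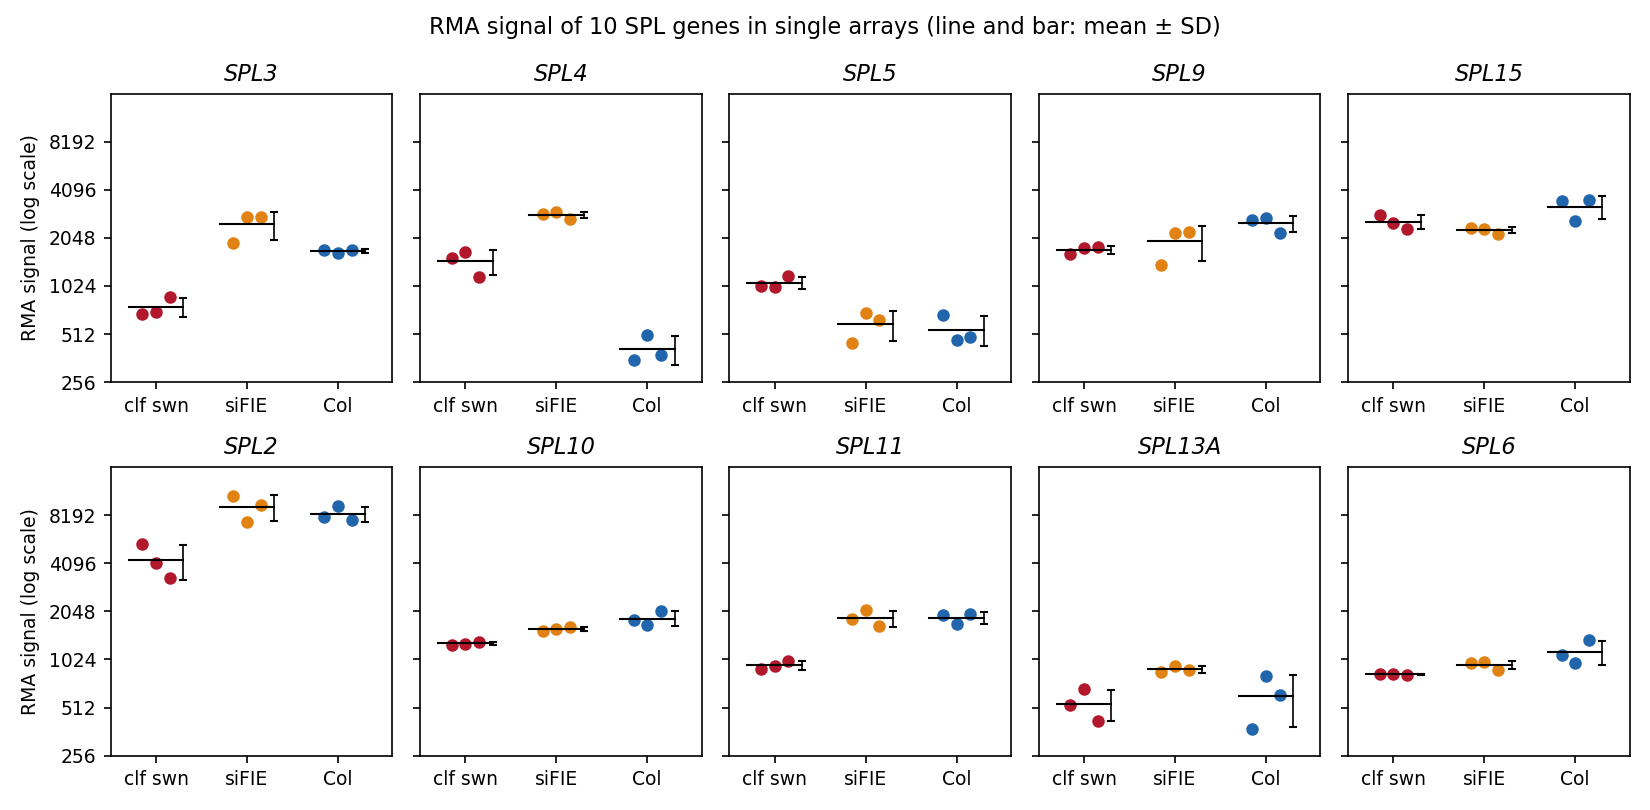
RMA signal (log axis) of each SPL gene on every array, with clf swn, siFIE and Col from left to right in each panel, 3 points per genotype, and a line and bar for the mean ± SD. All 6 mutant points of SPL4 lie above its Col points, the clf swn points of SPL3 lie below all of its other points, and those of SPL5 lie above them.

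SPL3, SPL4 and SPL5 encode small proteins, little more than the DNA-binding domain, that promote flowering and floral meristem identity. SPL4 was up-regulated in both mutants and SPL3 was down-regulated in clf swn. SPL5 passed the adjusted p but not 2-fold in clf swn, where its estimate was above 0.

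SPL4 had signals of 1525, 1682 and 1168 on the clf swn arrays, 2869, 2983 and 2705 on the siFIE arrays, and 350.1, 508 and 381 on the Col arrays. The 3 genotypes did not overlap, with siFIE highest and Col lowest. In clf swn SPL4 was up-regulated 3.54-fold, with a log2 change of 1.82 (SE 0.18) and an adjusted p of 2.5e-05. In siFIE it was up-regulated 6.99-fold, with a log2 change of 2.81 (SE 0.18) and an adjusted p of 9.6e-06. Both calls held under each of the 19 alternative settings, in which the log2 change was 1.29 to 1.98 in clf swn and 2.15 to 2.96 in siFIE. Of these settings, the series table (same values), unadjusted p and no fold threshold (looser rules) could not lose a call. SPL4 was 1.98-fold lower in clf swn than in siFIE (log2 -0.98, 95% interval -1.38 to -0.58, adjusted p 0.0017), just under the 2-fold threshold. That difference passed it without clf swn replicate 1 (-1.02), without clf swn replicate 2 (-1.09) and without siFIE replicate 3 (-1.02).

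SPL3 had signals of 687, 706 and 870.5 in clf swn, 1912, 2761 and 2775 in siFIE, and 1727, 1639.6 and 1715 in Col. All clf swn arrays were lowest, and all siFIE arrays were above all Col arrays. SPL3 was down-regulated 2.26-fold in clf swn, with a log2 change of -1.17 (SE 0.17) and an adjusted p of 3e-04. This call was lost when probe signals were used without background correction, where the log2 change was -0.91. In siFIE its log2 change was 0.53, with a 95% interval of 0.16 to 0.90 and an adjusted p of 0.051. The difference between the mutants was itself called, with SPL3 3.26-fold lower in clf swn than in siFIE (log2 -1.71, SE 0.17, adjusted p 3.6e-05), and this held under all 19 alternatives.

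SPL5 had signals of 1019, 1015 and 1177 in clf swn, 449, 692 and 628 in siFIE, and 677, 471 and 488 in Col. The clf swn arrays were above all others, and siFIE and Col overlapped. The log2 change in clf swn was 0.99 (95% interval 0.55 to 1.43, adjusted p 0.0024), which is 1.99-fold and so not called. It passed 2-fold without clf swn replicate 1 (1.02), without clf swn replicate 2 (1.03) and without Col replicate 1 (1.16). In siFIE it was 0.11 (95% interval -0.33 to 0.55, adjusted p 0.76). Between the mutants SPL5 differed by 0.88 on the log2 scale (adjusted p 0.0054), or 1.84-fold, and by 1.01 without siFIE replicate 2, where it was called.

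SPL9 and SPL15 are close paralogs that set the pace of leaf initiation and promote the vegetative phase change and flowering. Neither was called in either mutant, and all 4 estimates were below 0. SPL9 averaged 1726 ± 95.7 in clf swn, 1943 ± 477 in siFIE and 2523 ± 292 in Col. In clf swn all 3 arrays (1616 to 1788) were below the Col arrays (2189 to 2729), with a log2 change of -0.54 (95% interval -0.97 to -0.12) and an adjusted p of 0.04. That p was 0.069 to 0.11 in the 5 fits that left out any 1 clf swn array, Col replicate 1 or Col replicate 2. In siFIE the arrays overlapped with Col, and the change was -0.40 (-0.83 to 0.02, adjusted p 0.18). SPL15 averaged 2577 ± 268 in clf swn, 2284 ± 97.9 in siFIE and 3199.7 ± 523 in Col. Its log2 change was -0.30 in clf swn (-0.63 to 0.02, adjusted p 0.12), where the arrays overlapped with Col. In siFIE it was -0.47 (-0.80 to -0.15, adjusted p 0.048), where they did not overlap, and at 1.39-fold SPL15 was not called. The adjusted p of SPL15 in siFIE was 0.063 with the replicate block, and 0.052 to 0.15 in 8 of the 9 fits that left out an array, all but that without Col replicate 2.

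SPL2, SPL10 and SPL11 form a further clade, known for roles in shoot maturation and the shape of cauline leaves and fruits. SPL10 and SPL11 are neighbours in the genome. All 3 genes were lower in estimate in clf swn and passed the adjusted p there without passing 2-fold, while in siFIE none passed it. SPL2 had signals of 5418, 4104 and 3299.5 in clf swn, 10801, 7461 and 9517 in siFIE, and 7924, 9307 and 7645 in Col. The clf swn arrays were below all others, and siFIE and Col overlapped. The log2 change of SPL2 in clf swn was -0.98 (95% interval -1.44 to -0.52, adjusted p 0.0031), or 1.97-fold. It passed 2-fold without clf swn replicate 1 (-1.17), without Col replicate 1 (-1.01), without Col replicate 3 (-1.04) and after quantile normalization of the RMA values (-1.01). In siFIE the change was 0.15 (-0.31 to 0.60, adjusted p 0.67). SPL2 was 2.19-fold lower in clf swn than in siFIE (log2 -1.13, SE 0.20, adjusted p 0.0017). That call was lost without clf swn replicate 3 (-0.96). It was also lost in probe signals without background correction (-0.99) or with median scaling (-0.95).

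Signals of SPL11 were 886, 936 and 1006 in clf swn, 1836, 2081 and 1656 in siFIE, and 1939, 1696 and 1985 in Col, so that only clf swn stood apart. The log2 change was -0.99 in clf swn (95% interval -1.27 to -0.71, adjusted p 0.00015), or 1.99-fold, and -0.01 in siFIE (-0.30 to 0.27, adjusted p 0.95). It passed 2-fold in clf swn without clf swn replicate 3 (-1.04) and without Col replicate 2 (-1.06). SPL10 averaged 1289 ± 30.8 in clf swn, 1592 ± 40.6 in siFIE and 1846 ± 197 in Col. The genotypes did not overlap, with clf swn lowest and Col highest. The log2 change of SPL10 was -0.51 in clf swn (-0.76 to -0.27, adjusted p 0.0039) and -0.21 in siFIE (-0.46 to 0.04, adjusted p 0.23).

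SPL13A is one of 2 nearly identical genes, with SPL13B (AT5G50670), that delay adult leaf traits when silenced by miR156. The array lists both, and signal from one copy may reach the probes of the other, so their values are uncertain. SPL13A had signals of 531, 667 and 425 in clf swn, 855, 933 and 878 in siFIE, and 378, 807 and 618 in Col. The siFIE arrays were highest, and clf swn and Col overlapped over a wide spread. The log2 change was -0.11 in clf swn (-0.70 to 0.48, adjusted p 0.77) and 0.63 in siFIE (0.04 to 1.22, adjusted p 0.13). SPL13B averaged 1339 ± 149.8 in clf swn, 2451 ± 423 in siFIE and 1869 ± 139 in Col. Unlike those of SPL13A, its clf swn arrays all lay below the Col arrays, with a log2 change of -0.48 (adjusted p 0.025). In siFIE the SPL13B change was 0.38 (adjusted p 0.11). Between the mutants it was -0.86, lower in clf swn (adjusted p 0.0014), and all 3 values were under 2-fold. Neither copy was called in any comparison.

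SPL6, a miR156 target known for a role in defence, averaged 826 ± 6.15 in clf swn, 946 ± 55.9 in siFIE and 1139 ± 189 in Col. Its clf swn arrays (819 to 831) lay below all others. The log2 change was -0.45 in clf swn (-0.75 to -0.15, adjusted p 0.019) and -0.26 in siFIE (-0.56 to 0.04, adjusted p 0.22). Without Col replicate 3 the adjusted p of SPL6 in clf swn was 0.058.

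**Figure D2:**
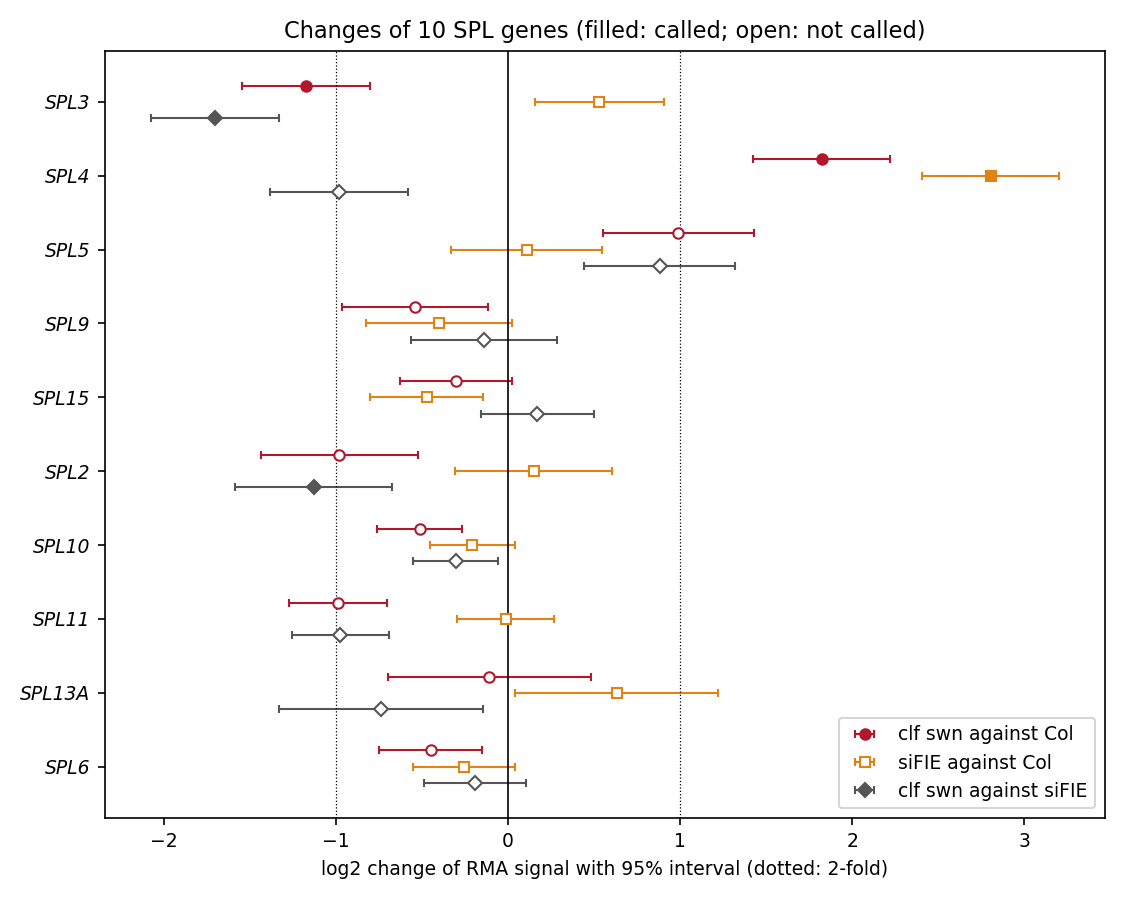
Log2 change of each SPL gene with its 95% interval, for each mutant against Col and, as grey diamonds, for the mutants set against each other. Dotted lines mark 2-fold, and filled symbols mark called genes. Against Col, SPL4 is called in both mutants at 1.82 and 2.81 and SPL3 in clf swn at -1.17. SPL2, SPL5 and SPL11 in clf swn sit at the 2-fold line. Between the mutants, SPL2 (-1.13) and SPL3 (-1.71) are called lower in clf swn.

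Set directly against siFIE, clf swn had 2 SPL genes called lower, SPL2 and SPL3, where 11% of all IDs were. None was called higher in limma, against 6.82% of all IDs, though 1 (SPL5) was higher at an unadjusted p under 0.05. By adjusted p alone 6 of 10 differed, against 41.5% of all IDs, and the arrays of the mutants did not overlap for 8 of 10, against 52.5%. With probe signals that were not background corrected, 0 were higher and 1, SPL3, was lower, against 3.85% and 6.13% of all IDs. The median difference of the 10 genes was -0.52 on the log2 scale and that of all IDs 0.06. For the 7 other SPL genes on the array it was -0.32. Of those 7, 6 estimates were below 0, against 8 of the 10. SPL4 and SPL11 were each just under 2-fold lower in clf swn than in siFIE, at -0.98 and -0.97. SPL11 was called lower without clf swn replicate 3 (-1.02) and without siFIE replicate 3 (-1.05). SPL13A, at -0.74, had an adjusted p of 0.048, and of 0.064 to 0.15 in 6 of the 9 fits that left out an array, those without clf swn replicate 1 or 3, any 1 siFIE array or Col replicate 3. The differences were -0.30 for SPL10 (adjusted p 0.051), -0.19 for SPL6 (0.28), -0.14 for SPL9 (0.6) and 0.17 for SPL15 (0.39).

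The 10 genes were read by 24 probes, 3 for SPL2, SPL5, SPL6 and SPL9 and 2 for each of the others. Probes of 1 gene share its transcript and are not replicates. In probe signals without background correction, 18 of the 24 were lower in clf swn than in Col, and the probes of 9 of the 10 genes moved to the same side. Both SPL4 probes were higher, by 1.14 and 1.44 in clf swn and by 2.29 and 2.01 in siFIE on the log2 scale. Both SPL3 probes were lower in clf swn, by -0.69 and -1.14, and higher in siFIE, by 0.40 and 0.50. The 3 SPL5 probes were higher in clf swn by 0.65, 0.59 and 1.11, and the last of these lies nearest the 3' end. The exception in clf swn was SPL13A, with probes at -0.36 and 0.04, and 1 of the 3 SPL6 probes was near 0 at -0.01. In siFIE the 24 probes were split evenly, 12 lower and 12 higher, and the probes of 6 genes kept to one side.

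**Figure D3:**
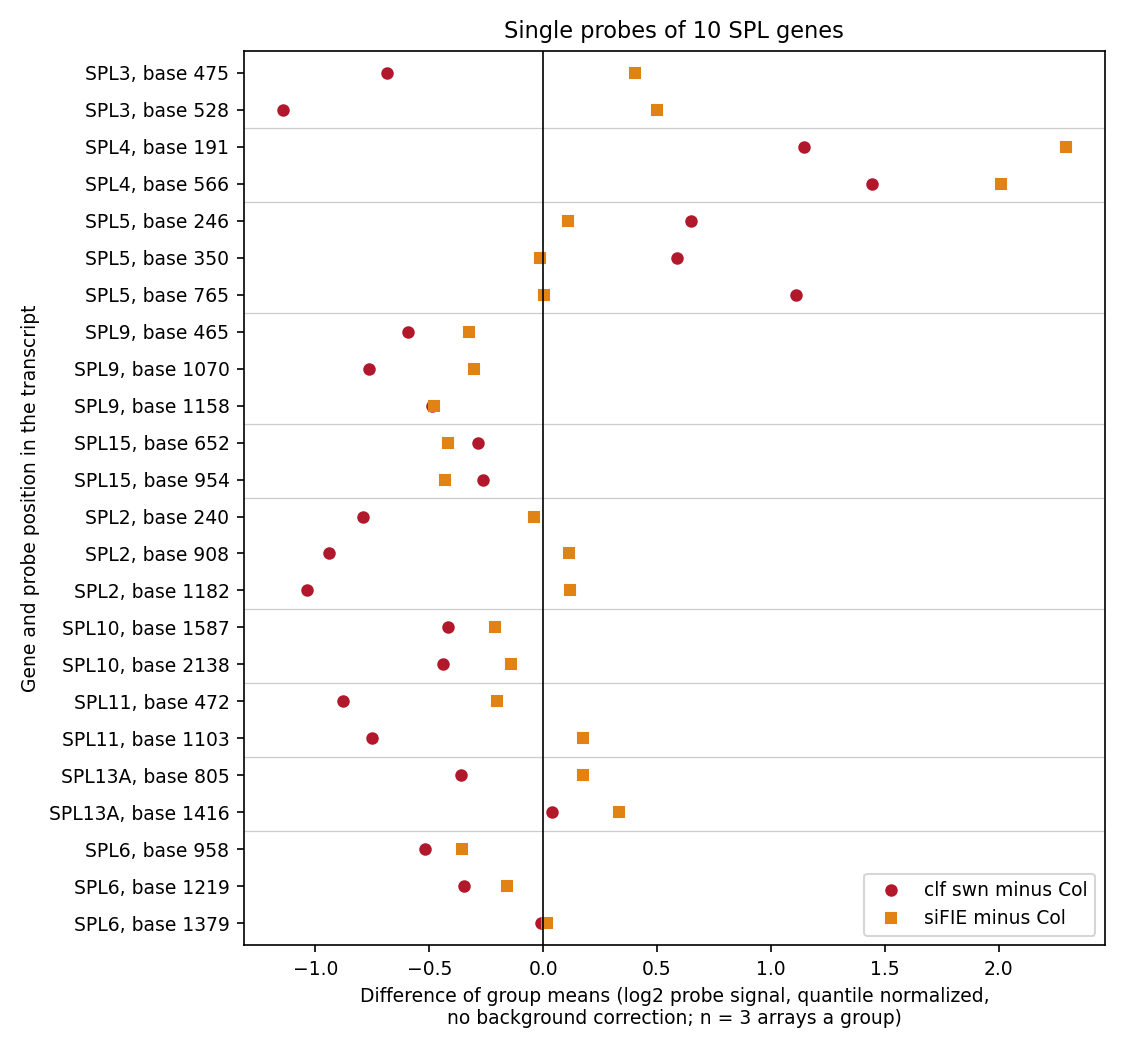
Difference of group means for each of the 24 probes (log2 probe signal, quantile normalized, without background correction), for clf swn and for siFIE against Col. Both SPL4 probes lie to the right of 0 in both mutants, and both SPL3 probes lie to the left in clf swn and to the right in siFIE.

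The array also held 7 SPL genes outside the 10, counting SPL13B. SPL8, which is not a miR156 target and acts in anther and fruit development, was the 1 gene among them that was called. It had signals of 2093, 3551 and 3723 in clf swn, 522, 1219 and 1036 in siFIE, and 369, 299 and 356 in Col, so that the genotypes did not overlap. It was up-regulated 8.90-fold in clf swn (adjusted p 3.6e-05) and 2.56-fold in siFIE (adjusted p 0.016), and was 3.47-fold higher in clf swn than in siFIE (adjusted p 0.0017). The siFIE call was lost in all 3 settings computed from probe signals (log2 0.58 to 0.73), and without siFIE replicate 2 (1.11), siFIE replicate 3 (1.23) or Col replicate 2 (1.26). In probe signals without background correction, the 3 SPL8 probes were higher by 2.41, 2.45 and 0.97 in clf swn. In siFIE the same probes were higher by 0.86, 0.81 and 0.09. The last of these was the brightest probe. The copper regulator SPL7 and SPL1, SPL12, SPL14 and AT1G76580, which encode large SPL proteins, were not called, with log2 changes of -0.42 to 0.33 in clf swn and -0.25 to 0.77 in siFIE.

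Among 7 genes known as direct targets of SPL proteins, clf swn seedlings had 4 up-regulated and 2 down-regulated, where 8.78% of all IDs were higher and 12.8% lower. The siFIE seedlings had 3 up-regulated and, in limma, 0 down-regulated, where 4.51% of all IDs were higher and 3.19% lower, with 2 (TRY and TCL1) lower at an unadjusted p under 0.05. The median log2 changes were 1.13 in clf swn and 0.87 in siFIE, against 0.05 and -0.02 for all IDs. AP1, which specifies the floral meristem, had signals of 3392, 3862 and 4197 in clf swn, 2638, 3853 and 4228 in siFIE, and 81.0, 106 and 96.3 in Col, and was up-regulated 40.5-fold in clf swn, against 37.3-fold in siFIE. FUL, a MADS-box gene of flowering and fruit, was up-regulated 4.97-fold in clf swn, against 9.11-fold in siFIE, and LFY, a master regulator of flower formation, 2.19-fold in clf swn, against 2.86-fold in siFIE. AGL42 was up-regulated 2.81-fold in clf swn, and its siFIE change of 0.87 was not called.

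SOC1 and TCL1 were the targets down-regulated in clf swn. SOC1, a flowering integrator, had signals of 1081, 908 and 995 in clf swn, 4619, 4547 and 4516 in siFIE, and 3915, 3897 and 4284 in Col. It was down-regulated 4.06-fold in clf swn (adjusted p 4.5e-07) and had a log2 change of 0.18 in siFIE (adjusted p 0.3). TCL1, a repressor of trichomes on stems, averaged 65.5 ± 12.7 in clf swn, 257 ± 37.5 in siFIE and 475 ± 92.5 in Col, and was down-regulated 7.26-fold in clf swn. The TCL1 change in siFIE (log2 -0.88, adjusted p 0.012) was under 2-fold and so not called. TRY, another trichome repressor, was not called, at -0.28 in clf swn (adjusted p 0.25) and -0.91 in siFIE (adjusted p 0.0072). In clf swn SOC1 and TCL1 thus went the opposite way to AP1, FUL, LFY and AGL42. Several of these calls did not hold when values were computed from probe signals. In all 3 such settings LFY was not called in clf swn (log2 0.24 to 0.37) or in siFIE (0.31 to 0.50), and AGL42 was not called in clf swn (0.68 to 0.93). FUL was lost in clf swn in the setting without background correction (0.76). AP1 was then the 1 target called up-regulated in clf swn, and AP1 and FUL were the 2 called in siFIE. LFY was also lost in clf swn without clf swn replicate 3 (0.96). Its signals were 105, 58.3 and 112 in clf swn and 33.6 to 50.8 in Col. The Col signals of FUL and LFY and the clf swn signals of TCL1 were under the 25th percentile of mean log2 signal over all IDs (6.40). Their folds are thus uncertain.

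The 6 AP2-type genes that miR172 represses were the next step of the pathway measured. In clf swn 4 were down-regulated (TOE1, TOE2, TOE3 and SNZ), in siFIE 2 were (TOE1 and SNZ), where 12.8% of all IDs were in clf swn and 3.19% in siFIE, and none was up-regulated in either in limma, with 1 (AP2) higher at an unadjusted p under 0.05 in each. For the 6 genes 5 estimates were below 0 in each mutant, against 46.3% of all IDs in clf swn and 52.7% in siFIE. TOE1 had signals of 6999.9, 8066 and 5357 in clf swn, 8357, 6316 and 6064 in siFIE, and 17674, 16387 and 17464 in Col. Both mutants lay below Col and overlapped with each other, at 2.56-fold lower in clf swn and 2.51-fold lower in siFIE. SNZ was lower by a factor of 5.05 in clf swn and of 5.43 in siFIE, and TOE2 2.66-fold lower in clf swn. TOE3 was 2.27-fold lower in clf swn, a call lost in the 3 settings computed from probe signals (log2 -0.94 to -0.78). SMZ was not called (-0.38 in clf swn and -0.25 in siFIE), nor was AP2, the floral organ gene. AP2 changed by 0.43 in clf swn (adjusted p 0.015) and by 0.59 in siFIE (adjusted p 0.0073), each under 2-fold. These were the estimates above 0. The primary transcripts of 8 MIR156 and 5 MIR172 loci matched no ID and were not analysed here, and the array did not measure the mature microRNAs.

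**Figure D4:**
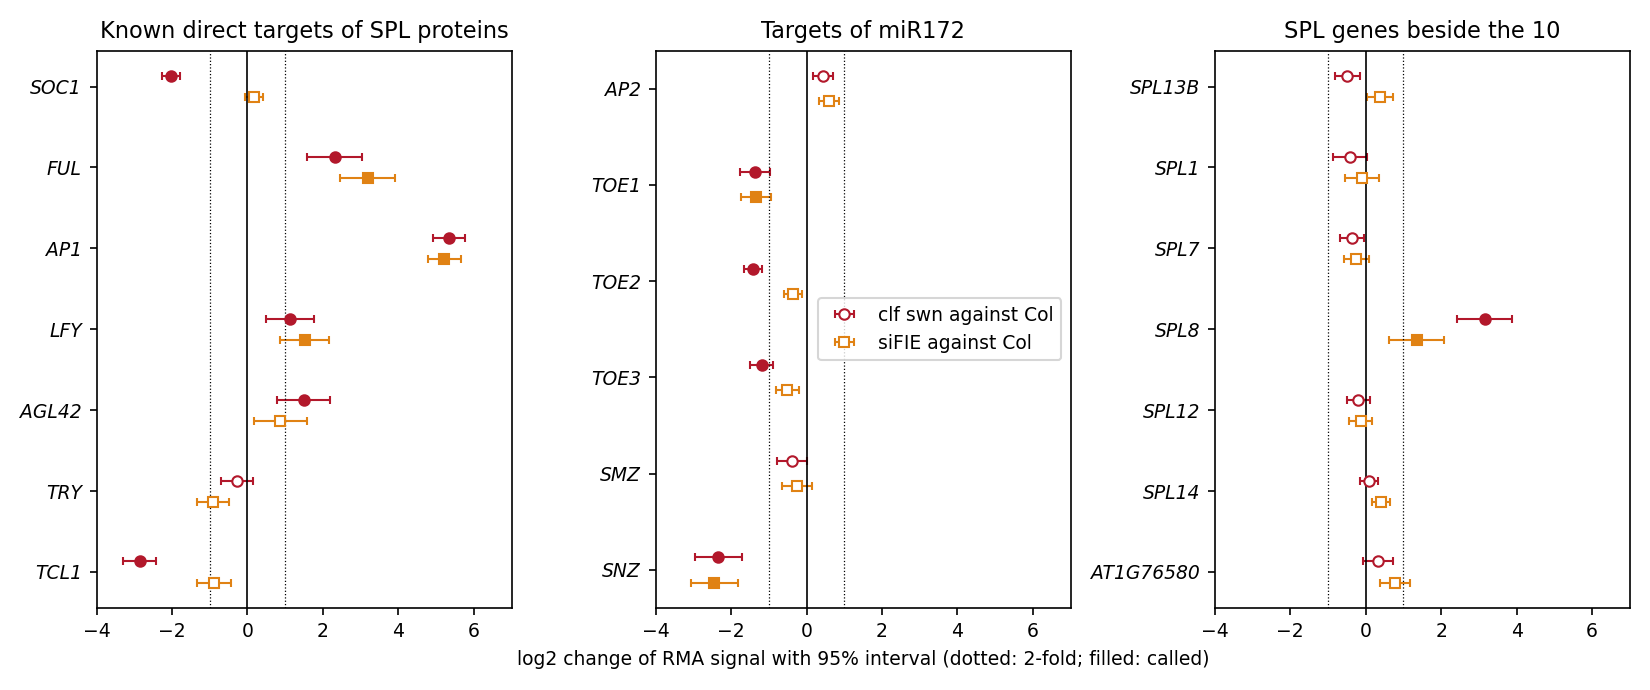
Log2 change with 95% interval for SPL targets, miR172 targets and the other 7 SPL genes, for clf swn against Col and siFIE against Col, with dotted lines at 2-fold and filled points for called genes. AP1, FUL and LFY are to the right in both mutants, SOC1 and TCL1 are called to the left in clf swn, and SPL8 is the 1 gene called in the right panel.

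Of the flowering activators FT, TSF and FD, which act beside the SPL genes, 1 call was made, in siFIE. FT, which encodes the mobile flowering signal, had signals of 33.5, 50.3 and 38.6 in clf swn, 447, 500.0 and 695 in siFIE, and 40.2, 49.4 and 68.9 in Col. It was up-regulated 10.4-fold in siFIE (adjusted p 2.1e-05), and its log2 change in clf swn was -0.36 (adjusted p 0.27). The FT signals in clf swn and Col, and those of TSF on all arrays, were under the 25th percentile of mean log2 signal over all IDs (6.40). The size of these changes is thus uncertain. TSF, at 0.89 in clf swn (adjusted p 0.004) and 0.91 in siFIE (adjusted p 0.0089), was under 2-fold and so not called. FD, at -0.66 in clf swn (adjusted p 0.011) and -0.40 in siFIE (adjusted p 0.15), was not called either.

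Of 10 known regulators of MIR156 or SPL genes, clf swn had 5 up-regulated, where 8.78% of all IDs were, and siFIE had 1, where 4.51% were. None was down-regulated in limma, with 0 in clf swn and 2 in siFIE (FUS3 and AGL15) lower at an unadjusted p under 0.05. FUS3, an embryo regulator, averaged 6077 ± 629.9 in clf swn, 61.9 ± 6.09 in siFIE and 109.7 ± 33.6 in Col, and was up-regulated 57.3-fold in clf swn. AGL15, a MADS-box gene of embryos that activates MIR156, averaged 18637 ± 1940.2 in clf swn, 1524 ± 351 in siFIE and 2762 ± 219.5 in Col, up-regulated 6.74-fold in clf swn. In siFIE the log2 changes of -0.78 for FUS3 (adjusted p 0.039) and -0.88 for AGL15 (adjusted p 0.0075) were under 2-fold and so not called. The Polycomb protein gene EMF1 was up-regulated in both mutants, by a factor of 4.04 in clf swn and of 2.91 in siFIE, and BMI1A, a PRC1 component, 2.11-fold in clf swn. The fifth gene up-regulated in clf swn was VAL1, at 2.09-fold, which recruits Polycomb complexes and was named after its values were seen. BMI1A was not called without background correction (log2 0.98).

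None of 9 genes that make, export or use microRNAs was called in limma in either mutant. At an unadjusted p under 0.05 there were 4 in clf swn, all higher, and 2 in siFIE, both lower. By adjusted p alone 3 of 9 passed in clf swn and 0 in siFIE, below the 46.8% of all IDs in clf swn and the 20.3% in siFIE. The 3 were HYL1, which assists the processing of microRNA precursors (log2 0.68, adjusted p 0.00067), HST, an exporter (0.64, adjusted p 0.0017), and the cap-binding gene ABH1 (0.37, adjusted p 0.018), all higher in clf swn and each under 2-fold. SQN, which aids the microRNA effector AGO1, had a log2 change of 0.24 in clf swn (adjusted p 0.2) and of -0.44 in siFIE (adjusted p 0.057).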

How the data were processed

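Total RNA of 9 pools of seedlings (3 clf swn, 3 siFIE, 3 Col) was hybridised to single-colour NimbleGen arrays. The authors deposited, per array, the intensity of each probe as written by NimbleScan 2.4.31, on a linear scale and not normalized, and an RMA intensity per gene, also linear, which is background corrected and normalized. For the RMA step, the sources used here give neither software nor settings. The series table held the same RMA values. RMA combines the probes of a gene, 2 or 3 for all but 5 IDs, and its background step widens changes of dim genes. Array design and loci are as deposited, names follow TAIR10.1, and no coordinates were used. No sequences of genes or probes were used.

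Log2 RMA values of all 30361 IDs went into 1 linear model, made with limma 3.58.1 under R 4.3.3 (lmFit, eBayes, 3 group means, all 9 arrays, two-sided). Calls needed more than 2-fold and p under 0.05 after Benjamini-Hochberg adjustment over every ID. Nothing says that the pools were separate sowings, so p-values measure the spread between these pools. Slide and scan date did not enter the fit. Python 3.11.15 with pandas 2.3.3 and matplotlib 3.10.9 drew the figures. This fit was first tested on simulated data with known changes.

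The 10 SPL genes and all gene lists were chosen with earlier results of these data known. All SPL genes are named, all genes of lists of up to 7, and from longer lists the 4 with the smallest p in either mutant. For SPL4, which changed most in clf swn, the 3 IDs with the highest Pearson r over the 9 arrays are named. Markers were leaf (RBCS1A, CAB1, LHCB2.1, CA1), seed (CRU3, CRA1, OLEO1, SESA1), flower (AP3, PI, AG, SEP3) and root hair (EXPA7, COBL9) genes.

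Alternatives were probe intensities, quantile normalized, either after normexp (offset 50) or with no background correction, or median scaled after normexp, quantile normalization of the RMA values, the series table, no IDs under the 25th percentile of mean signal, a fit to the 6 arrays of each comparison alone, no adjustment of p, no fold threshold, replicate number as a block, and leaving out each array. The series table, no adjustment of p and no fold threshold could not lose a call. The 25th percentile filter, the fit to 6 arrays, the block and leaving out an array of the genotype not compared left the log2 change as it was.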

Additional observations from a re-analysis of the deposited data

Results flagged for a closer look

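SPL2 and SPL3 differed between the mutants in limma, in a contrast of clf swn with siFIE that is also the difference of their changes from the shared Col arrays. The log2 difference was -1.13 for SPL2 (adjusted p 0.0017), lower in 3 of 3 clf swn arrays than in every siFIE array. For SPL3 it was -1.71 (adjusted p 3.6e-05), also lower in 3 of 3. The SPL2 call was lost in 3 of 19 alternative settings and the SPL3 call in none. With 3 arrays a genotype, no search for a single outlying array was made.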

How the results depend on the processing

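Of 570 recomputed values of single SPL genes, 534 kept direction and side of the threshold, 4 lost the call, 26 gained one and 6 changed sign. These counts include the settings that could not lose a call. The sign changes were all of uncalled values near 0, SPL13A in clf swn without clf swn replicate 3 (0.05) or Col replicate 2 (0.14), SPL5 in siFIE without siFIE replicate 2 (-0.019), and SPL11 in siFIE without siFIE replicate 3 (0.065), Col replicate 1 (0.01) or Col replicate 3 (0.03). Over all single arrays left out, these 3 changes ranged from -0.41 to 0.14, from -0.019 to 0.29 and from -0.10 to 0.065. Of SPL genes called, clf swn against Col had 1 higher and 1 lower. Leaving out each array gave 1 to 2 higher and 1 to 2 lower. Of all 30361 IDs, 2664 to 2750 were then higher and 3774 to 3962 lower. No fold threshold gave 2 and 6, against 7336 and 6887 of all IDs. No background correction gave 0 lower, and quantile normalization of the RMA values 2 lower, against 3839 of all IDs in the latter. In siFIE against Col, 1 lower was called with no fold threshold in place of 0, where 3047 of all IDs were lower. Leaving out each array changed neither count. For clf swn against siFIE, 0 were higher and 2 lower. Leaving out each array gave 0 to 1 higher and 2 to 4 lower, against 2063 to 2144 and 3204 to 3424 of all IDs. No fold threshold gave 1 and 5, against 6332 and 6281 of all IDs. Both no background correction and normexp with median scaling gave 1 lower, SPL3, against 1862 and 2265 of all IDs. Where calls changed, the values lay near 2-fold or the setting dropped that threshold or the background step, and the cause was not tested further. Without background correction 5.17% of all IDs were higher and 7.79% lower in clf swn, and 2.25% and 1.46% in siFIE. SPL targets called up-regulated in clf swn then numbered 1 in place of 4, other SPL genes in siFIE 0 in place of 1, and, among calls lower in clf swn relative to siFIE, miR172 targets 0 in place of 1 and SPL targets 1 in place of 2. Of 1252 recomputed values of called genes outside the 10, under alternatives some of which were added for them after seeing the data, 1215 kept their call, 37 lost it and 0 changed sign. Settings that could not lose a call are counted here too. The 3 arrays a genotype and 2 or 3 probes a gene limit the precision, and values near 2-fold are not settled by them.

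Replicate numbers did not pair the arrays. Same-numbered arrays of different genotypes correlated at -0.16 to 0.17 in their deviations from the group means, and 2 of 9 arrays correlated best with their own number. With the replicate block, the SPL counts were 1 higher and 1 lower in clf swn against Col, 1 and 0 in siFIE against Col, and 0 and 2 in clf swn against siFIE, and no call of an SPL gene changed, although the adjusted p of SPL15 in siFIE, under 2-fold, became 0.063.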

Other observations

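The IDs whose signal went most like that of SPL4 over the 9 arrays were CSLG2 (AT4G24000, a cellulose synthase-like gene, Pearson's r 0.990), AT5G60140 (0.990) and AT4G29570 (0.987). The 9 arrays fall into 3 genotypes, so these r mainly repeat the order siFIE over clf swn over Col and carry no test. CSLG2 averaged 1495 ± 19.7 in clf swn, 7049.7 ± 1094 in siFIE and 36.7 ± 29.0 in Col (SD, n = 3 each). AT4G29570 averaged 211 ± 20.0 in clf swn, 580.3 ± 27.7 in siFIE and 48.9 ± 5.31 in Col.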
